A study of Mus musculus with 70 samples.

Results

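The genes described here are 9 genes of lipid uptake and cholesterol efflux, Cd36, Lpl, Fabp4, Fabp5, Nr1h3, Pparg, Apoe, Abca1 and Abcg1, chosen by name from the 52636 genes of a count table of leukocytes sorted from mouse blood. All 9 were found in the table by their Ensembl identifiers. Male C57BL/6J mice, 7 weeks old when bought, were exposed for 10 days to chronic social defeat stress, in which a larger, aggressive CD-1 mouse subordinates the experimental mouse each day. A social interaction test then sorted the defeated mice into susceptible (SUS) animals, which avoided an unfamiliar CD-1 mouse, and resilient (RES) animals, which did not. Control (CON) mice were not defeated, so the SUS and RES groups were defined by behaviour after the same stress. No group carried a transgene, a deletion or a drug. Ly6high and Ly6low monocytes, B cells (Bcells) and T cells (Tcells) were sorted by antibodies to CD11b, Ly6C, Ly6G, B220 and CD90.2 after lysis of red cells, and their total RNA was sequenced. The libraries are labelled as brain, whereas their cell types, markers and the study's methods are those of blood leukocytes.

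Macrophages and monocytes take up fatty acids and oxidised lipoproteins through the scavenger receptor CD36, and lipoprotein lipase releases fatty acids from circulating triglycerides. The binding proteins FABP4 and FABP5 carry fatty acids inside the cell. The nuclear receptors PPARγ, which binds fatty acids, and LXRα, the product of Nr1h3, which binds oxysterols, switch on genes of lipid handling. The transporters ABCA1 and ABCG1 move cholesterol out of the cell, ABCA1 to apolipoprotein acceptors, among them ApoE. In the mouse, Ly6high monocytes are the classical cells that enter tissues and Ly6low monocytes patrol the vessel wall.

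Of the 70 libraries, 68 were used, with 4 to 6 in each of the 12 groups of cell type and condition and with 19769835 to 67038231 counts each. Libraries 52, labelled RES B cells, and 70, labelled RES T cells, were left out because their lineage markers went against their labels. In the others the markers of each sort were at their highest where the label placed them: the summed level of 5 B cell genes was 4145 to 5335 CPM (read counts scaled to a common library size) in B cells and at most 34.2 elsewhere, and that of 5 T cell genes 1509 to 2189 in T cells and at most 99.4 elsewhere. The sum of 5 Ly6low monocyte genes was 4307 to 5965 CPM in Ly6low monocytes and 576 to 1398 in Ly6high monocytes. The sum of 5 Ly6high monocyte genes was 4390 to 9182 CPM in Ly6high monocytes, 170 to 563 in Ly6low monocytes and 670 to 1021 in B cells. Genes of natural killer cells summed to 276 to 1473 CPM in the Ly6low libraries against at most 41.9 in the Ly6high libraries. Adipocyte genes, whose cells are rich in Fabp4, Lpl, Cd36 and Pparg, summed to at most 1.28 CPM in any library, and endothelial genes to at most 8.43. The labels do not name the mouse behind a library, so libraries of different cell types were treated as independent although some may share a mouse, and p-values measure the spread between libraries.

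Levels are given first as CPM on 1 scale over the 68 libraries, for control mice. In these bulk samples, fewer cells of a type and less RNA per cell cannot be told apart. Cd36 and Lpl, both of lipid uptake, had opposite homes among the monocytes.

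Cd36 (chr5:17781690-17888801, minus strand) was at 331, 362, 306 and 304 CPM in the 4 CON Ly6low libraries. Its lowest, median and highest levels were 7.71, 15.2 and 26.6 CPM in the 6 CON Ly6high libraries, 7.13, 11.5 and 18.3 in B cells and 0, 0.359 and 4.85 in T cells. Every Ly6low library thus stood above every other library, Ly6high monocytes and B cells overlapped, and T cells were below B cells without overlap. The log2 fold change of Ly6high against Ly6low monocytes was -4.42 ± 0.69 (SE; edgeR quasi-likelihood test, Benjamini-Hochberg adjusted p = 0.000108), and that of B cells against T cells was 3.23 ± 0.67 (adjusted p = 0.00089).

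Lpl (chr8:68880491-68907448, plus strand) was reversed. Its lowest, median and highest levels were 71.6, 306 and 421 CPM in CON Ly6high monocytes, against 16.9, 10.3, 10.1 and 4.85 CPM in the 4 CON Ly6low libraries. B cells held it at 0.0254 to 0.928 CPM and T cells at 0.0412 to 0.297, where no control library held more than 28 of its reads. The Ly6high and Ly6low groups did not overlap, and the log2 fold change between them was 4.67 ± 0.63 (edgeR adjusted p = 1.8e-05).

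Of the fatty acid chaperones, Fabp4 (chr3:10204088-10208576, minus strand) was at 47.0, 61.8, 51.4 and 50.4 CPM in the CON Ly6low libraries and had a lowest, median and highest level of 0, 0.184 and 2.86 CPM in Ly6high monocytes. In lymphocytes it did not exceed 0.393 CPM in any control library. The log2 fold change of Ly6high against Ly6low monocytes was -6.42 ± 1.05 (edgeR adjusted p = 0.000149), a fitted value that depends on the prior count because the Ly6high counts were so low. Fabp5 (chr3:10012548-10016607, plus strand), its close relative in the same gene cluster, was spread differently: 5.14, 13.4 and 14.7 CPM (lowest, median, highest) in Ly6high monocytes, 4.09, 7.41, 5.32 and 4.91 CPM in the Ly6low libraries, and 0.782, 2.69 and 4.80 CPM in T cells. In B cells its median was 0.0416 CPM. The monocyte subsets overlapped in Fabp5 (log2 fold change 1.13 ± 0.68, edgeR adjusted p = 0.28), whereas B cells lay below T cells in every control library (-4.08 ± 0.70, adjusted p = 3.8e-05).

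Both lipid-sensing nuclear receptors were highest in Ly6low monocytes. Pparg (chr6:115360951-115490399, plus strand) was at 79.5, 108, 95.8 and 94.2 CPM in the CON Ly6low libraries and at 3.74, 4.09 and 8.01 CPM (lowest, median, highest) in Ly6high monocytes, with no overlap (log2 fold change -4.22 ± 0.53, edgeR adjusted p = 5.3e-06). Of the lymphocyte libraries of all conditions, 9 of 17 B cell and 13 of 17 T cell libraries held no Pparg read, and the highest count was 25. Nr1h3 (chr2:91184061-91202834, minus strand) was at 18.2, 26.1, 26.5 and 17.0 CPM in the CON Ly6low libraries against 1.43, 5.10 and 9.98 CPM in Ly6high monocytes, again with no overlap. The difference was -2.02 ± 0.71 (edgeR adjusted p = 0.046), but without any 1 of 8 of the 10 monocyte control libraries (Ly6high 4, 10, 13 and 16 and Ly6low 21, 24, 29 and 32) its adjusted p rose to between 0.063 and 0.0996. Within SUS and within RES libraries Nr1h3 passed again.

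The efflux genes did not follow a single order. Apoe (chr7:19696109-19699188, minus strand) was at 2259, 1255, 2692 and 1715 CPM in CON Ly6low monocytes and at 790, 1210 and 2202 CPM (lowest, median, highest) in Ly6high monocytes. These groups overlapped (log2 fold change -0.64 ± 0.46, edgeR adjusted p = 0.41). B cells followed at 152, 173 and 195 CPM and T cells at 4.53, 10.9 and 38.7 CPM, each below the preceding type without overlap, and the difference of B cells from T cells was 3.57 ± 0.47 (adjusted p = 5e-06).

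Abca1 (chr4:53030787-53159895, minus strand) was the 1 gene of the 9 with its highest level in B cells, at 283, 314 and 468 CPM. The CON Ly6low libraries were at 43.3, 70.4, 54.6 and 49.4 CPM and T cells at 31.1, 47.0 and 71 CPM, which overlapped. Ly6high monocytes had the lowest median, at 8.68, 16.2 and 32.4 CPM, and overlapped T cells. B cells exceeded T cells by 2.75 ± 0.30 on the log2 scale (edgeR adjusted p = 3.1e-07), and Ly6high monocytes differed from Ly6low monocytes by -1.67 ± 0.31 (adjusted p = 0.00057).

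Abcg1 (chr17:31057675-31117988, plus strand) was expressed at like levels in each sort. It was at 130, 159, 126 and 164 CPM in the CON Ly6low libraries, 113, 143 and 172 CPM in T cells, 88.6, 140 and 158 CPM in B cells and 60.1, 87.4 and 104 CPM in Ly6high monocytes, and each type overlapped the next in this order. Ly6high monocytes did not overlap Ly6low monocytes (-0.78 ± 0.15, edgeR adjusted p = 0.00049), a difference under the fold required for a call. B cells and T cells did not differ beyond their spread (-0.14 ± 0.14, adjusted p = 0.51).

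**Figure D1:**
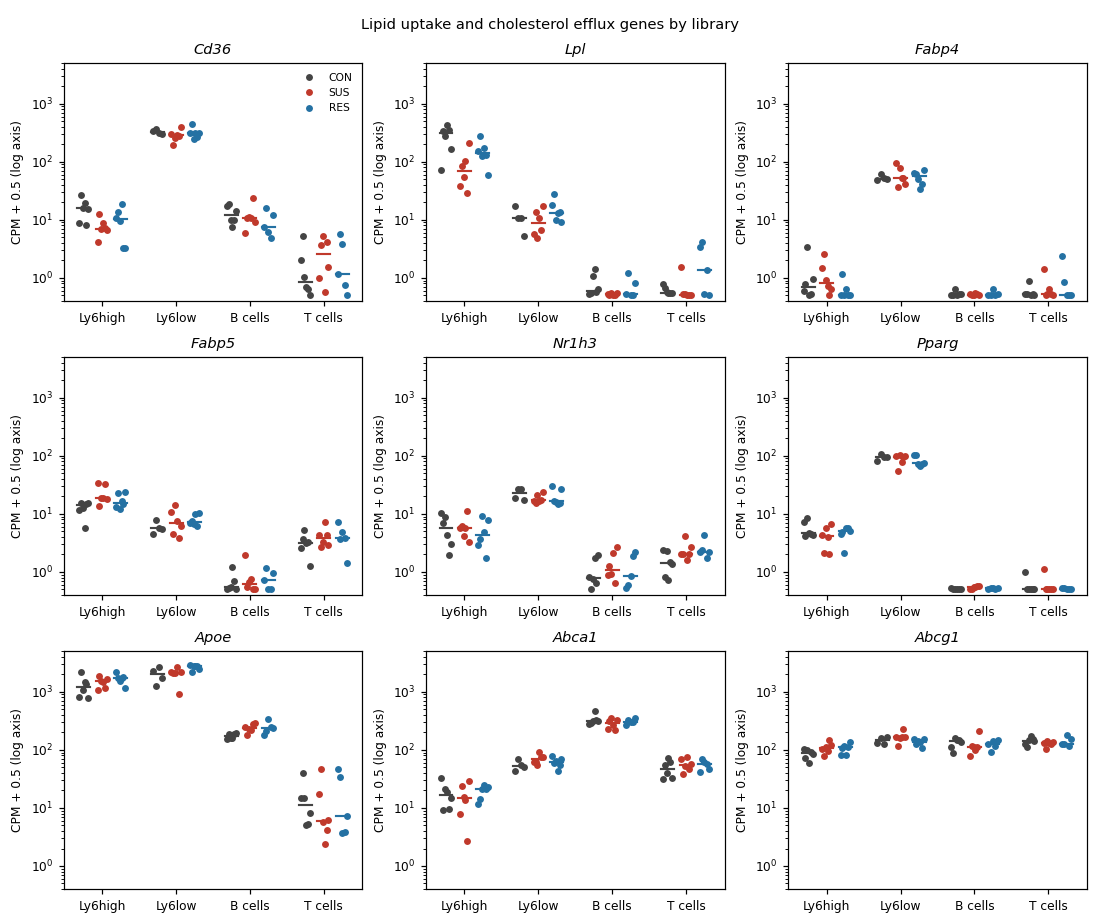
Level of each of the 9 genes in the 68 libraries, as CPM plus 0.5 on a log axis, by cell type and by CON, SUS and RES. Each point is 1 library and each line a group median; Cd36, Fabp4, Nr1h3 and Pparg peak in Ly6low monocytes, Lpl in Ly6high monocytes and Abca1 in B cells, whereas Abcg1 is near level.

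The promoter of Abca1 is shown because Abca1 is a textbook target of LXRα and was highest in B cells, where the median of Nr1h3 was lowest. The 250 bases before its start in the RefSeq promoter table (GRCm38.p6, chr4:53159896-53160145, minus strand, 5′ to 3′ in the direction of the gene) read as follows, with a match to a nuclear receptor element in capitals.
Abca1: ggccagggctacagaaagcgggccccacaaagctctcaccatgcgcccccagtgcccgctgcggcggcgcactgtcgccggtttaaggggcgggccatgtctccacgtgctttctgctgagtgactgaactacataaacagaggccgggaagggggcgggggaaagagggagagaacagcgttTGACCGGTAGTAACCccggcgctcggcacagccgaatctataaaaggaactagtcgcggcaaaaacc
The element searched, on both strands, was 2 nuclear receptor half-sites in tandem, GGTNA and GGTCA with 5 free bases between them, a spelling chosen with this promoter in view. The match in Abca1, fixed in advance by this choice, lies 67 to 53 bases before the start, on the strand opposite to the gene. Of 32851 promoters in the table, each of 250 bases before and 50 after the start, 68 (0.207%) held a match, and Abca1 was the only 1 of the 5 members in the table (Cd36, Nr1h3, Pparg, Apoe and Abca1) to do so. The stricter DR4 and DR1 elements, the half-site AGGTCA repeated with 4 and 1 free bases between, matched no member promoter and 5 and 13 promoters in all. AGGTCA itself was found in the promoters of Cd36 and Pparg and in 16.3% of all promoters.

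Between cell types, a call required an adjusted p below 0.05 across the genes tested together with an absolute log2 fold change over 1. In control mice 6 of the 9 genes were called between Ly6high and Ly6low monocytes, against 11.2% of 21032 genes tested: Cd36, Fabp4, Nr1h3, Pparg and Abca1 were lower and Lpl higher in Ly6high monocytes. Of the 9, 4 were called between B cells and T cells, against 20.2% of genes: Cd36, Apoe and Abca1 were higher in B cells and Fabp5 in T cells. Between the mean of both monocyte types and the mean of both lymphocyte types 8 were called, against 32.1% of genes, all but Abcg1.

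Of these 8, 7 were higher in monocytes. Their log2 fold changes ran from 3.61 ± 0.48 for Fabp5 to 9.76 ± 0.57 for Pparg, through 3.87 for Nr1h3, 4.17 for Cd36, 5.02 for Apoe, 6.61 for Fabp4 and 8.16 for Lpl. Abca1 was lower, at -2.02 ± 0.23. The median over the 9 genes was 4.17, beside 0.01 over all genes tested. The values of Pparg, Lpl and Fabp4 rest on a few lymphocyte reads and depend on the prior count. The same comparisons within SUS libraries called 7, 4 and 8 of the 9, and within RES libraries 6, 4 and 8. Over all genes they called 4216, 3619 and 6357 of 19581 within SUS and 4121, 3516 and 6301 of 20022 within RES libraries. Fabp5 was the further call between the monocyte types within SUS libraries (1.57, edgeR adjusted p = 0.048).

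**Figure D2:**
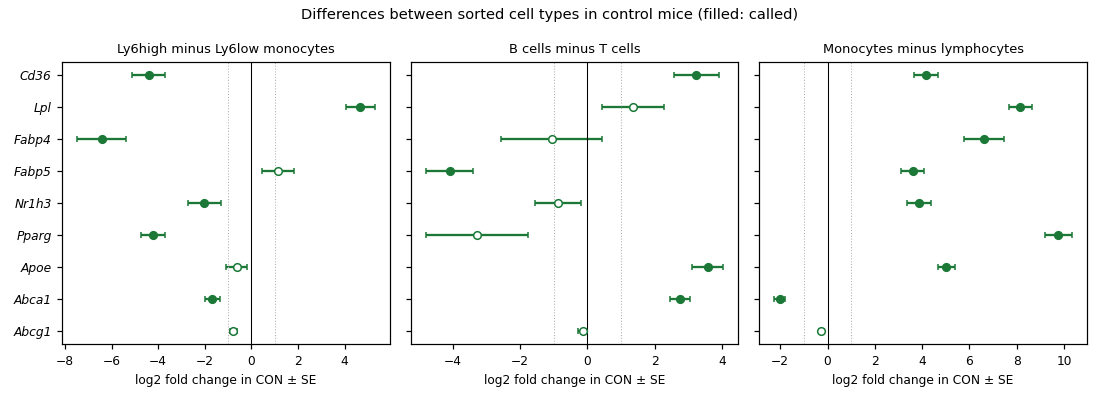
Log2 fold change ± SE of the 9 genes between sorted cell types in CON mice, with called genes filled and dotted lines at 1 and -1. Lpl lies at 4.67 and Cd36, Fabp4, Nr1h3, Pparg and Abca1 lie below -1 in Ly6high against Ly6low monocytes, and Abcg1 is the 1 gene not called between monocytes and lymphocytes.

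To compare genes with each other, levels were divided by the combined length of all annotated exons of a gene. For Fabp4 this was 4489 bases, the whole gene from start to end. Values per kb can therefore be too low for such genes, and the order of the genes is approximate. In CON Ly6low monocytes Apoe was highest, at 926 ± 293 CPM per kb (SD, n = 4), followed by Cd36 at 90.8 ± 7.6, Pparg at 32.0 ± 3.98 and Abcg1 at 19.8 ± 2.67, no neighbours of which overlapped. Lpl was last, at 1.01 ± 0.47. In Ly6high monocytes Apoe was again first at 600 ± 245 CPM per kb (SD, n = 6), Lpl second at 25.8 ± 12.3 then Abcg1 at 11.7 ± 2.26, and Lpl and Abcg1 overlapped. In B cells the highest were Apoe (81.0 ± 9.00), Abca1 (32.1 ± 6.59) and Abcg1 (18.0 ± 3.59), none overlapping, and in T cells Abcg1 (19.4 ± 2.94) and Apoe (6.58 ± 6.01), which overlapped.

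The stress comparisons asked whether defeated mice differed from controls, and susceptible from resilient mice, within each cell type. In Ly6high monocytes of SUS mice, Lpl was lower than in CON mice. Fabp5 was higher by an amount under the fold required for a call, and Cd36 was lower without passing the test. No gene of the 9 was called in any other stress comparison.

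Lpl in Ly6high monocytes had lowest, median and highest levels of 71.6, 306 and 421 CPM among CON libraries. The SUS libraries had 28.0, 68.5 and 211 CPM, the RES libraries 57.9, 141 and 279 CPM. Of the 6 SUS libraries 3 lay below every CON library, and the groups overlapped. Group means were 270 ± 129, 86.4 ± 67.5 and 153 ± 73.2 CPM (SD, n = 6 each). The log2 fold change was -1.68 ± 0.49 (edgeR adjusted p = 0.032) for SUS against CON, -0.83 ± 0.48 (adjusted p = 0.34) for RES against CON and -0.85 ± 0.48 (adjusted p = 0.9994) for SUS against RES. The SUS call was close to its threshold: without any 1 of 9 of the 12 libraries compared (CON 4, 7, 10 and 13 and SUS 2, 5, 8, 11 and 14) the log2 fold change stayed between -1.73 and -1.498 while the adjusted p was 0.051 to 0.096. When the averaged log2 CPM of 6 red cell genes entered the fit as a covariate the log2 fold change was -1.54 (adjusted p = 0.69), and with that of 8 platelet genes it was -1.01 (adjusted p = 0.25).

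Cd36 was at 7.71, 15.2 and 26.6 CPM (lowest, median, highest) in CON, 3.59, 6.55 and 12.3 CPM in SUS and 2.76, 9.62 and 18.3 CPM in RES Ly6high monocytes. Of the SUS libraries, 4 lay below every CON library. Cd36 differed by -1.12 ± 0.41 (edgeR adjusted p = 0.075) for SUS and -0.72 ± 0.41 (adjusted p = 0.32) for RES against CON, and -0.40 ± 0.41 (adjusted p = 0.9994) for SUS against RES. DESeq2 called the SUS difference (-1.17, adjusted p = 0.030), as did edgeR without SUS library 5 (-1.35, adjusted p = 0.039). Over the 7 other settings of the fit, both covariates among them, the log2 fold change ran from -1.20 to -0.88. Their adjusted p (edgeR or DESeq2) ran from 0.030 to 0.71. With each library left out, the edgeR adjusted p ran from 0.039 to 0.20.

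Fabp5 was at 5.14, 13.4 and 14.7 CPM in CON, 13.4, 18.5 and 33.1 CPM in SUS and 11.5, 15.1 and 23.1 CPM in RES Ly6high monocytes. Of the SUS libraries, 5 lay above every CON library, and the remaining library overlapped. Fabp5 differed by 0.86 ± 0.27 (edgeR adjusted p = 0.038) for SUS and 0.46 ± 0.27 (adjusted p = 0.34) for RES against CON, and 0.40 ± 0.27 (adjusted p = 0.9994) for SUS against RES. The adjusted p of the SUS difference rose to between 0.069 and 0.12 without any 1 of CON libraries 1, 7 and 10 and SUS libraries 2 and 14. In edgeR it was 0.054 with DESeq2 size factors and 0.0503 with only the 2 groups compared in the fit. With the red cell genes as a covariate the log2 fold change of Fabp5 was 0.45 (adjusted p = 0.91), and with the platelet genes 0.44 (adjusted p = 0.47). A processed pseudogene, Fabp5l2, resembles Fabp5, and reads shared between them may have been lost or split in counting.

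**Figure D3:**
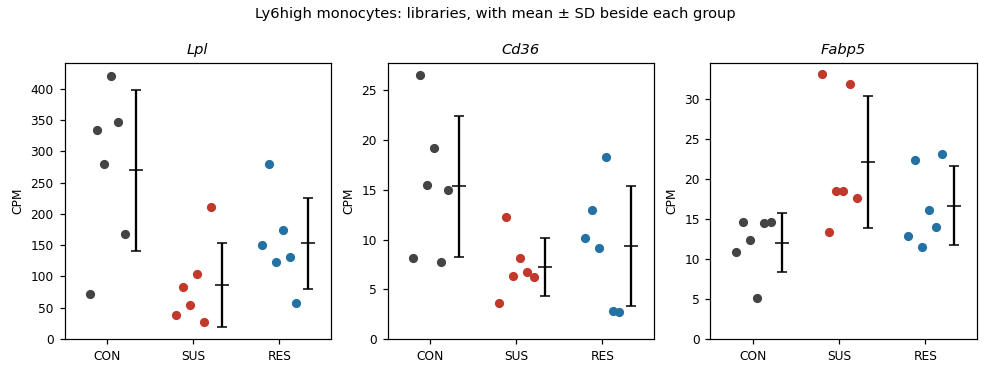
Levels of Lpl, Cd36 and Fabp5 in CPM in the 6 CON, 6 SUS and 6 RES libraries of Ly6high monocytes, with the mean ± SD beside each group. The mean of Lpl fell from 270 (CON) to 86.4 (SUS), with 153 in between for RES, and the groups overlap in all 3 genes.

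The other 6 genes were not called in Ly6high monocytes. For SUS against CON, Pparg differed by -0.53 ± 0.41 and Abcg1 by 0.32 ± 0.17 (edgeR adjusted p = 0.45 and 0.23), and Nr1h3, Apoe, Abca1 and Fabp4 by -0.24 to 0.15. Called members were thus 1 of 9, against 3.45% of 16955 genes (387 higher and 198 lower, or 296 and 244 with DESeq2 size factors), and 0 of 9 for RES against CON, against 0.997%. The median log2 fold change over the 9 genes was 0.01 for SUS against CON, beside -0.05 over all genes. At an adjusted p under 0.05 alone, Fabp5 was among 8.78% of genes higher and Lpl among 3.84% lower. For SUS against RES 0 of 9 were called, against 0% of genes, with no member and 620 of all genes at an unadjusted p under 0.05, and DESeq2 called no member. DESeq2 called 2 members for SUS and none for RES against CON. Against CON, 3 members for SUS and 0 for RES stood at an unadjusted p under 0.05, beside 4498 and 3599 of all genes.

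Other measures differed between SUS and CON in the same libraries, and red cell genes between RES and CON as well. The 6 red cell genes summed to 343 to 1215 CPM in CON, 1097 to 8987 in SUS and 1077 to 4348 in RES Ly6high libraries. All 6 were called higher in SUS, and Slc4a1 in RES. Their median sums in CON, SUS and RES were 608, 1681 and 1851 CPM. In Ly6low monocytes these were 591, 1064 and 1060, in B cells 2780, 5565 and 4652, and in T cells 1478, 2384 and 1925. The 8 platelet genes summed to 6.4 to 11.7 CPM in CON, 6.3 to 53.0 in SUS and 7.8 to 23.5 in RES, with Ppbp called. The 5 dendritic cell genes summed to 126 to 165 CPM in CON and 30.5 to 98.4 in SUS, which did not overlap, and 70.7 to 153 in RES. Of these 5, Cd209a was called lower in SUS (-3.30, edgeR adjusted p = 0.0014), Clec9a and Zbtb46 differed by -2.63 and -1.28, Flt3 by -0.37 and Xcr1 by 0.69. The 7 tissue macrophage genes summed to 13.5 to 22.3 CPM in CON and 3.77 to 13.7 in SUS. They did not move as 1 list: Cd163 was called lower (-1.46), and Spic (-1.43) and C1qa (-0.14) were lower. C1qb (1.21), C1qc (1.39) and Vcam1 (0.58) were higher, none of these called. The 9 neutrophil genes ranged from 16.8 to 1743 CPM over all Ly6high libraries with none called. Of these lists, 1 tissue macrophage gene was at 0 in every Ly6high library, and of the 5 Ly6high monocyte genes themselves 1 was called higher in SUS. Red cell sums of CON and SUS libraries scarcely overlapped, so in that covariate fit red cell level and group can hardly be told apart. The loss of a call in it therefore does not show what part red cell RNA had. Beyond the red cell and platelet covariates above, the part of these genes in the differences of Lpl, Cd36 and Fabp5 was not tested.

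In Ly6low monocytes no member was called for SUS against CON (0.0871% of 19521 genes), RES against CON (0.0154%) or SUS against RES (0%). At an unadjusted p under 0.05 stood 1, 0 and 1 members, beside 1857, 1888 and 740 of all genes, and DESeq2 called no member. Lpl was at 16.9, 10.3, 10.1 and 4.85 CPM in the CON libraries, against 4.42, 8.14 and 17.0 CPM (lowest, median, highest) for SUS and 8.74, 12.8 and 27.7 CPM for RES, and the groups overlapped. Its log2 fold change was -0.19 ± 0.40 for SUS (edgeR adjusted p = 0.96) and 0.46 ± 0.41 for RES (adjusted p = 0.82) against CON. Cd36 ranged over 304 to 362 CPM (CON), 191 to 397 (SUS) and 248 to 440 (RES), and differed by -0.20 ± 0.16 for SUS (adjusted p = 0.81). Fabp5 differed by 0.43 ± 0.34 for SUS against CON (adjusted p = 0.79). Over the 9 genes the log2 fold changes ran from -0.30 to 0.43 for SUS and from -0.23 to 0.46 for RES against CON.

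Whether the stress difference itself differed between the monocyte types was tested as an interaction. For SUS against CON, the Ly6high difference minus the Ly6low difference was -1.496 ± 0.72 for Lpl (edgeR adjusted p = 0.36), -0.93 ± 0.52 for Cd36 (adjusted p = 0.46) and 0.42 ± 0.44 for Fabp5 (adjusted p = 0.74). No member was called for SUS (0.00472% of 21178 genes) or RES (0%), and none by DESeq2. At an unadjusted p under 0.05 stood 1 and 0 members, beside 2844 and 2164 of all genes. The difference of Lpl in Ly6high monocytes was therefore not shown by this test, which takes libraries as independent, to be particular to that cell type.

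In B cells 5 of the 9 genes had enough reads to be tested (Fabp4, Fabp5, Lpl and Pparg did not). None was called for SUS against CON (0.00568% of 17620 genes), RES against CON (0%) or SUS against RES (0%), and none by DESeq2. At an unadjusted p under 0.05 stood 1, 1 and 0 members, beside 602, 560 and 240 of all genes. The member under 0.05 was Apoe. Its lowest, median and highest levels were 152, 173 and 195 CPM in CON and 176, 237 and 288 CPM in SUS B cells, and the 5 RES libraries were at 177, 207, 341, 247 and 239 CPM. Of the SUS libraries 5 of 6, and of the RES libraries 4 of 5, lay above every CON library. The log2 fold change was 0.48 ± 0.14 for SUS and 0.49 ± 0.15 for RES against CON, both with the same 6 controls (edgeR adjusted p = 0.81 and 0.9996 over all genes). The other 4 tested genes differed by -0.21 to 0.70 for SUS and by -0.50 to 0.33 for RES against CON.

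In T cells 7 genes were tested (Fabp4 and Pparg were not). No member was called for SUS against CON (0.0265% of 18860 genes), RES against CON (0%) or SUS against RES (0%), and none by DESeq2. At an unadjusted p under 0.05 stood 0, 1 and 0 members, beside 906, 775 and 451 of all genes. The 1 member was Lpl for RES against CON, which was at 0.0412 to 0.297 CPM in CON T cells and at 2.93, 3.61, 0.0239, 0.881 and 0 CPM in the 5 RES libraries (log2 fold change 3.69 ± 1.54, edgeR adjusted p = 0.9999). Those 5 libraries, in the same order, held the Ly6low monocyte genes at a summed 36.5, 51.7, 20.4, 7.65 and 13.5 CPM and Apoe at 46.7, 33.7, 3.18, 3.35 and 6.71 CPM. The first and second of the 5 were thus highest in all 3 measures. Among CON T cells, libraries 53, 56, 59 and 68 held the Ly6low genes at 29.6, 39.5, 32.9 and 34.0 CPM. Lpl there was at 0.297, 0.172, 0.0693 and 0.0412 CPM. The Ly6low genes mark the monocyte type with the lower Lpl. Whether monocyte RNA contributed to Lpl in T cells was not tested.

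**Figure D4:**
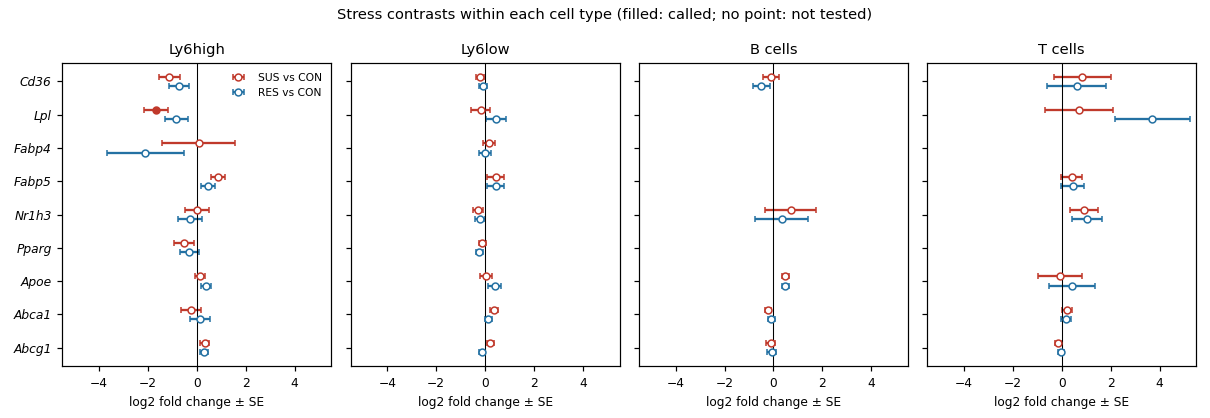
Log2 fold change ± SE of each tested gene for SUS and RES against CON within each cell type, with called genes filled and genes that were not tested left out. Lpl for SUS against CON in Ly6high monocytes, at -1.68, is the 1 filled point; Lpl for RES in T cells, at 3.69, rests on few reads.

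Of 92 other lipid genes in 8 lists, 77 were tested in Ly6high monocytes. Called for SUS against CON were 2, both higher: Dgat2, which makes triglyceride (36.6 ± 25.7 against 10.6 ± 2.73 CPM, SD, n = 6 each; log2 fold change 1.76 ± 0.33, edgeR adjusted p = 0.0020), and Apoc1, an apolipoprotein of the Apoe cluster (10.1 ± 2.88 against 4.47 ± 1.47 CPM; 1.15 ± 0.37, adjusted p = 0.043). With the red cell genes as a covariate neither stayed called (Dgat2 0.68, adjusted p = 0.78; Apoc1 0.71, adjusted p = 0.88), nor with the platelet genes (1.46, adjusted p = 0.067; 1.10, adjusted p = 0.22). Dgat2 stayed called without each of the 12 libraries compared. Apoc1 lost its call without any 1 of 9 of them (CON 1, 4, 7, 10 and 16 and SUS 5, 8, 11 and 14; adjusted p = 0.057 to 0.10). None was called for RES against CON. The shares of all genes called were 3.45% for SUS and 0.997% for RES against CON. At an adjusted p under 0.05 alone, 14 of the 77 were higher and 4 lower in SUS, beside 8.78% and 3.84% of all genes, and 6 were higher and 0 lower in RES, beside 3.71% and 1.26%. The SUS counts were 0 and 0 with either covariate, and 4 to 16 higher and 1 to 4 lower with a library left out, the fewest higher without SUS library 14. With DESeq2 size factors they were 7 and 5. The median log2 fold change over the 77 was 0.21 for SUS and 0.29 for RES, beside -0.05 and -0.03 over all genes.

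By list, and with the genes named here for passing, 4 of 9 tested lipid storage genes were higher in SUS at that threshold: Dgat2, the droplet coat genes Plin2 (0.57 ± 0.19) and Plin3 (0.88 ± 0.20), and the lipase Pnpla2 (0.57 ± 0.18). Plin2 and Pnpla2 were higher in RES as well (0.74 ± 0.19 and 0.64 ± 0.18). Of 11 fatty acid oxidation genes, 3 were higher in SUS (Hadha, Acads and the carnitine carrier Slc25a20) and 2 in RES (Slc25a20 and Cpt1a, the gate of mitochondrial fatty acid entry). Of 3 further fatty acid binding genes, the acyl-CoA binding Dbi was higher in SUS (0.95 ± 0.17) and RES (0.74 ± 0.17).

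Of 17 cholesterol synthesis genes, Hmgcs1 (-0.81 ± 0.23) and Sqle (-0.90 ± 0.27) were lower and Fdft1 (0.64 ± 0.21) higher in SUS. Of 11 genes of lysosomal cholesterol and efflux, Npc2, which hands cholesterol out of the lysosome, was higher in SUS (0.56 ± 0.16) and RES (0.57 ± 0.16), and Cyp27a1, which makes an oxysterol, was lower in SUS (-0.68 ± 0.17). Among 8 uptake genes the high density lipoprotein receptor Scarb1 was higher in SUS (0.66 ± 0.17). Among 9 nuclear receptor genes Ppard was higher and the corepressor Ncor1 lower in SUS, and among 9 LXR targets Lpcat3 and Apoc1 were higher. SUS and RES were compared with the same controls, so their values are not independent.

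**Figure D5:**
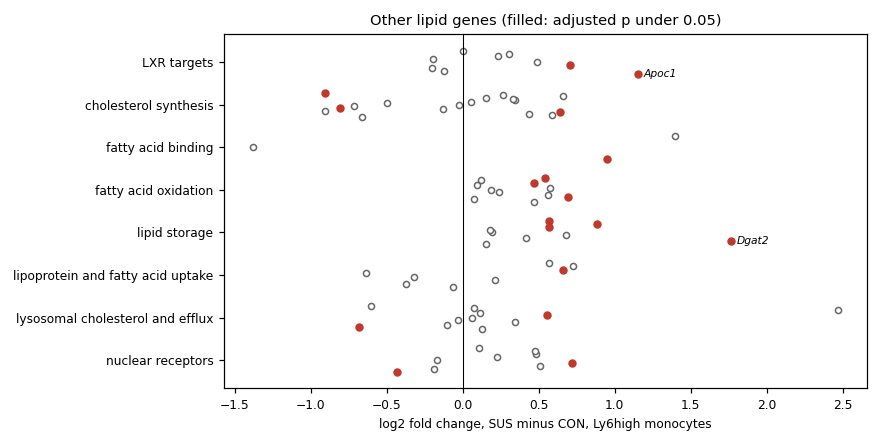
Log2 fold change of the 77 tested lipid genes for SUS against CON in Ly6high monocytes, by list, with genes at an adjusted p under 0.05 filled. The 2 called genes, Dgat2 at 1.76 and Apoc1 at 1.15, are named; 14 filled points lie above 0 and 4 below.

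In the other cell types none of the 92 genes was called under stress by edgeR, with 3 to 18 of the 72 to 80 tested at an unadjusted p under 0.05. The 18 of 80 were those of Ly6low SUS against CON, beside 1857 of all 19521 genes. They included 7 of 17 cholesterol synthesis genes, whose median log2 fold change was -0.37 (-0.33 for RES). Between cell types in control mice more were called, and those named are among the 3 with the lowest p in each direction. Over all genes the called shares were 11.2%, 20.2% and 32.1% for the 3 comparisons, in the order given below. Of 79 tested, 7 were higher and 6 lower in Ly6high than in Ly6low monocytes, among them Npc2 (2.56), Nceh1 (1.38) and Mvd (1.26) and, lower, Pltp (-1.77), Dgat1 (-1.07) and G0s2 (-5.07). In B cells 6 were higher and 12 lower than in T cells, among them Mylip (1.32), Pltp (2.54) and the desaturase gene Scd1 (10.49) and, lower, Arl4c (-6.33) and Npc2 (-1.98). In monocytes 32 were higher and 5 lower than in lymphocytes, among them Scarb1 (4.57) and the cholesterol esterifying Soat1 (2.50) and, lower, Mylip (-2.39), Fasn (-1.13) and Ppargc1b (-2.25). All of these passed at an adjusted p under 0.05 by edgeR.

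For each member, the protein-coding genes with the most similar pattern, up to 3, were found by Pearson's r of log2(CPM + 0.5) over the 68 libraries, which share cell type and sort, so r mostly describes cell type. For Cd36 they were Tmem26, Dusp16 and Gm6377 (r = 0.93 to 0.91), for Lpl Stxbp6, Serpinb8 and Cds1 (0.97), and for Fabp4 Cd300ld5, Cd300ld2 and Cd300ld4 (0.97). For Fabp5 they were App, Tiam1 and H1f0 (0.94), for Nr1h3 Itgal, Plagl2 and S1pr5 (0.91 to 0.90), and for Pparg Sstr4, Il31ra and Itgav (0.97). For Abca1 they were H2-Ob, Fam214a and Myo1e (0.94 to 0.93), for Apoe the myeloid genes Cybb and Spi1 (0.98), and for Abcg1 Aldh18a1, Sipa1l1 and Ap1g2 (0.69 to 0.68). Annotated genes overlap Nr1h3 (Gm13783 and Gm23390), Pparg (the antisense Gm44079) and Abcg1 (Gm25447), and the strand setting of the counting is not given in the sources used here, so a share of their reads is uncertain. Among the members themselves the highest values of r were those of Pparg with Fabp4 (0.91), Nr1h3 (0.89) and Cd36 (0.86).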

How the data were processed

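RNA of sorted blood leukocytes was sequenced from 70 libraries made with a stranded low-input total RNA kit. The deposited table holds unnormalised whole-read counts by Ensembl gene, which their processing notes credit to HISAT2 and HTSeq on mm10. Whether counting used strand is not given in the sources used here. Libraries 52 and 70 were left out, no 2 libraries were identical and 0 sample columns were unused. Counts were tested with edgeR 4.0.16 (R 4.3.3, limma 3.58.1): low-count filter, TMM scaling and robust quasi-likelihood fits, per cell type for stress, over the control libraries for cell types, and over both monocyte types for interactions. A call needed a Benjamini-Hochberg adjusted p under 0.05 over all genes tested and an absolute log2 fold change above 1. DESeq2 1.42.0 was an alternative. On simulated counts for Ly6high SUS against CON, 165 of 200 changed genes were called, with 2 unchanged genes called, of 16127. For the interaction of SUS against CON, 132 of 200 changed genes were called, with 17 unchanged genes called, of 20254. Genes set higher by 2 on the log2 scale had median fitted values of 2.03 and 1.99 in these fits. How often differences as small as those of Cd36 and Fabp5 would be called was not tested.

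Named were all 9 members, other lipid genes called under stress, the 3 lipid genes of lowest p in each direction between cell types, and the 3 genes most like each member. Further lipid genes are named for an adjusted p under 0.05, chosen after their values were seen. Members and lists were chosen with earlier results of these data known. Gene positions are from GRCm38, promoters from RefSeq. Some genes that these rules select are not reported here.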

Additional observations from a re-analysis of the deposited data

Results flagged for a closer look

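Of 82 sets of 4 to 6 libraries, each 1 member in 1 group with a mean of at least 1 CPM, 11 held a library whose gap to the next exceeded Dixon's critical value, where chance gives about 1 in 20 sets. Values are in CPM.

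Cd36 was at 440 in RES Ly6low library 23 (the others 248 to 318), at 23.4 in SUS B cell library 48 (5.49 to 10.9) and at 4.85 in CON T cell library 56 (0 to 1.51). Apoe was at 38.7 in that same T cell library (4.53 to 14.5), at 46.3 in SUS T cell library 57 (1.91 to 16.8) and at 914 in SUS Ly6low library 30 (2118 to 2641). Fabp5 was at 6.64 in SUS T cell library 63 (2.22 to 3.85) and Nr1h3 at 3.81 in RES T cell library 61 (1.22 to 1.92). Pparg was at 1.58 in RES Ly6high library 9 (3.92 to 5.29). Abca1 was at 468 in CON B cell library 44 (283 to 325) and Abcg1 at 207 in SUS B cell library 51 (76.6 to 118).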

How the results depend on the processing

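For SUS against CON in Ly6high monocytes, 1 member was called. The count was 2 with DESeq2, with at least 10 counts in every library, with only the 2 groups compared in the fit and at an adjusted p alone, and 0 without the low-count filter and with the red cell or platelet list as a covariate. It was 0 to 1 when each library was left out. Over all genes, 585 calls became 1 with the red cell and 66 with the platelet covariate, and 286 to 893 with a library left out. With at least 10 counts in every library, Cd36, Lpl, Fabp4, Fabp5, Nr1h3 and Pparg were not tested between cell types, because a control lymphocyte library fell short. Of Apoe, Abca1 and Abcg1, 1 was called between Ly6high and Ly6low monocytes, 2 between B and T cells and 2 between monocytes and lymphocytes. Over all genes 1226, 1575 and 2686 of 10217 were then called. Of 17 comparisons, 13 called no member, and none was called in their 272 alternative values. The log2 fold change reversed for Pparg in Ly6high SUS against CON with the red cell covariate (0.092) and for Lpl in Ly6low SUS against CON without CON library 21 (0.13, range -0.45 to 0.13); the cause was not tested. Without the low-count filter the Nr1h3 call between monocyte types was lost (adjusted p = 0.073). Of the 3 genes most like Fabp5 and Pparg, 1 remained with pseudocounts of 0.1 and 1 CPM respectively. All 36 control levels moved by less than 1 SD with DESeq2 size factors. DESeq2 gave Cd36 no adjusted p between cell types. No paired analysis was possible because the groups share no replicate numbers and the labels name no mouse. The alternatives for other lipid genes were chosen after seeing the data.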

Other observations

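Libraries 52 and 70 are given as CPM of their raw totals. Library 52, labelled RES B cells, held the B cell gene Cd79a at 4.91, against 912 to 1799 in the 17 B cell libraries used, and the T cell gene Cd3e at 352, against 335 to 624 in the 17 T cell libraries. Library 70, labelled RES T cells, held Cd79a at 1079 and Cd3e at 0.109. Apoe was at 4.55 in library 52 and 247 in library 70, where B cells ranged from 125 to 277 and T cells from 1.92 to 54.5. Abca1 was at 57.6 in library 52 and 213 in library 70, where B cells ranged from 194 to 398 and T cells from 27.9 to 84.1. Fabp5 was at 1.74 in library 52 and 0.0273 in library 70, where B cells ranged from 0 to 1.27 and T cells from 0.697 to 7.73. Cd36 was at 0.121 in library 52, and at 2.05 in library 70, below every B cell library (3.46 to 23.2) and inside the range of T cells (0 to 6.29).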
